A study of Spodoptera litura with 9 samples.

Results

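In testis of the moth Spodoptera litura, the tobacco cutworm, 22 long non-coding RNA (lncRNA) transcripts met a rule for a shift in new pupae. Their mean levels lay less than 1.5-fold apart before and during fusion of the paired testes. In new pupae the means were at least 1.5-fold from those during fusion. The rule covered 1143 of the 2476 transcripts in the deposited count table. RNA sequencing covered 3 stages with 3 libraries each. L6D4 libraries are of larvae 4 days into the sixth instar, whose testes have yet to fuse. L6D6 libraries are of larvae 6 days into that instar, prepupae with fusing testes, and P0D libraries are of pupae at age 0 days, with fused testes. All animals were males kept at 27 °C, 70% relative humidity and a cycle of 16 h light and 8 h dark, and the larvae ate an artificial diet, which the label of the pupae does not list. The protocol names 9 males and 3 repeats a stage without saying how many animals went into a library, so the spread between libraries may be partly technical, and fusion, age and the passage from larva to pupa cannot be told apart.

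The lncRNAs described were chosen from the values themselves. The choice began with transcripts that carry an ID of the transcript assembly (MSTRG, locus number, transcript number) and are the 1 row of their locus in the table, which left 1561. Of these, 1160 had a mean of at least 20 counts over the 9 libraries, and 1143 of those also had more than 5 counts in some L6D4 library. Counts were then divided by a size factor per library (median of ratios over all rows, as in DESeq), and the results are called scaled counts. The L6D6 and L6D4 means lay less than 1.5-fold apart for 749 loci, and the P0D and L6D6 means at least 1.5-fold apart for 65 of these. In 22 of the 65, all 3 P0D values lay beyond all 6 values of the earlier stages, 11 above them and 11 below; over all 1143 loci the P0D values lay above the other 6 in 4.99% and below them in 3.5%. Levels, ratios and separation of values at all 3 stages are therefore a description of what was chosen, and no test is given for them.

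An lncRNA is a long transcript with no evident protein-coding reading frame. Some act on neighbouring genes, some bind proteins or microRNAs, and for most no function is known. Moth testes hold follicles in which cysts of germ cells pass through division, meiosis and the shaping of sperm, wrapped in somatic cyst and sheath cells. In many moths the pair of larval testes joins into 1 organ around pupation, a time of high ecdysteroid hormone. A whole testis contains all of these cells, so a higher share of a cell type and more RNA per cell cannot be told apart in these libraries. The sources used here give no sequence, position, gene name or neighbour for any of the 22 IDs, so no role is given to them.

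The libraries held between 2665554 and 4262529 counts, with size factors between 0.597 in L6D4-3 and 1.26 in L6D6-2. Library P0D-3 differed from the others in its make-up: its 10 most abundant lncRNAs took 59.4% of its counts, against 72.1% in P0D-1, 67.3% in P0D-2 and 64.3% to 72.0% in the larval libraries. Values are given in the order of replicates 1, 2 and 3.

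MSTRG.10524.2 was by far the largest change among the 22. It stood at 37.9, 25.7 and 52.0 scaled counts at L6D4, at 29.3, 62.0 and 42.6 at L6D6, and at 2383, 2472 and 1843 at P0D. In deposited counts this was 22 to 78 counts in each of the 6 larval libraries and 2176 to 2880 in each P0D library. The P0D mean of 2232 ± 340 was 50.01-fold the L6D6 mean of 44.6 ± 16.5 (SD, n = 3 each), while the L6D6 mean was 1.16-fold the L6D4 mean of 38.5 ± 13.2 (SD, n = 3). Even the lowest P0D library was 29.7-fold above the highest larval library. Its transcript number shows that the assembly held at least 1 more transcript of this locus, which was not analysed here.

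MSTRG.5846.1 was second among the higher members. It stood at 14.6, 11.7 and 15.1 scaled counts at L6D4, at 15.1, 19.9 and 16.7 at L6D6, and at 99.1, 105.6 and 122.8 at P0D. The P0D mean of 109 ± 12.3 was 6.34-fold the L6D6 mean of 17.2 ± 2.44 (SD, n = 3 each). The 3 P0D libraries lay close together, and the lowest of them was 4.98-fold above the highest larval library. All 9 of its values were deposited as whole counts, between 9 and 145.

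MSTRG.6095.1 and MSTRG.18551.1 were also at least 2-fold higher at P0D, but on few reads. MSTRG.6095.1 stood at 8.25, 15.1 and 7.49 scaled counts at L6D4, at 5.54, 17.5 and 12.8 at L6D6, and at 32.4, 29.7 and 50.2 at P0D, where its mean was 3.13-fold that of L6D6. MSTRG.18551.1 stood at 6.83, 15.2 and 8.38 scaled counts at L6D4, at 16.9, 6.36 and 19.5 at L6D6, and at 25.5, 26.6 and 44.9 at P0D, 2.27-fold the L6D6 mean. In both, P0D-3 was the highest library. The lowest P0D library was 1.70-fold above the highest larval one in MSTRG.6095.1 and 1.31-fold above it in MSTRG.18551.1. Their means over the 9 libraries were 21.8 and 20.4 deposited counts, just over the minimum of 20, and MSTRG.18551.1 was also near the limit set on the earlier step, with an L6D6 mean 1.41-fold that of L6D4.

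Another 4 members, with more counts, had P0D means between 1.83-fold and 1.99-fold those of L6D6. MSTRG.12911.1 stood at 93.7, 85.1 and 93.9 scaled counts at L6D4, at 93.2, 125.6 and 108.4 at L6D6, and at 234, 211.1 and 172.7 at P0D, a mean of 206 ± 30.9 at P0D against 109 ± 16.2 at L6D6 (SD, n = 3 each). MSTRG.18798.4 stood at 269, 194 and 243 scaled counts at L6D4, at 312, 305 and 339 at L6D6, and at 463, 560 and 809 at P0D. In this transcript every L6D6 library was also above every L6D4 library, the means being 1.35-fold apart. The whole-table test described below did not call that difference. MSTRG.9976.3 had a lower mean at L6D6 than at L6D4, at 134, 204 and 237 scaled counts at L6D4, 157, 142 and 199 at L6D6, and 268, 372 and 272 at P0D. MSTRG.20089.1 stood at 119, 107 and 80.5 scaled counts at L6D4, at 167, 117 and 96.4 at L6D6, and at 187, 177 and 394 at P0D. Its 1.99-fold P0D mean came largely from P0D-3; without that library the log2 ratio of P0D to L6D6 means was 0.52, under the limit of 1.5-fold, against 0.99 with it.

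The last 3 of the higher members lay near the 1.5-fold limit. MSTRG.17743.1 stood at 58.0, 56.2 and 60.01 scaled counts at L6D4, at 49.3, 57.6 and 37.3 at L6D6, and at 64.2, 85.1 and 87.8 at P0D, 1.64-fold the L6D6 mean but 1.36-fold the L6D4 mean. MSTRG.6913.1 stood at 88.8, 100.3 and 53.6 scaled counts at L6D4, at 86.9, 106.5 and 107.5 at L6D6, and at 127, 150.2 and 200.7 at P0D, 1.59-fold the L6D6 mean. MSTRG.13866.1 stood at 34.2, 20.6 and 40.0 scaled counts at L6D4, at 52.8, 45.6 and 37.3 at L6D6, and at 82.3, 71.4 and 55.2 at P0D, 1.54-fold the L6D6 mean. In MSTRG.13866.1 the L6D6 mean was already 1.43-fold that of L6D4, the largest such ratio among the 22, and the lowest P0D value was only 1.05-fold above the highest larval one. Just under the limit, MSTRG.5279.1 met every other condition with P0D and L6D6 means 1.47-fold apart, at 162, 179 and 134 scaled counts at P0D against 101, 103 and 119.5 at L6D6. MSTRG.13178.1 followed at 1.402-fold. In all, 13 loci missed the limit in this way on the higher side.

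**Figure D1:**
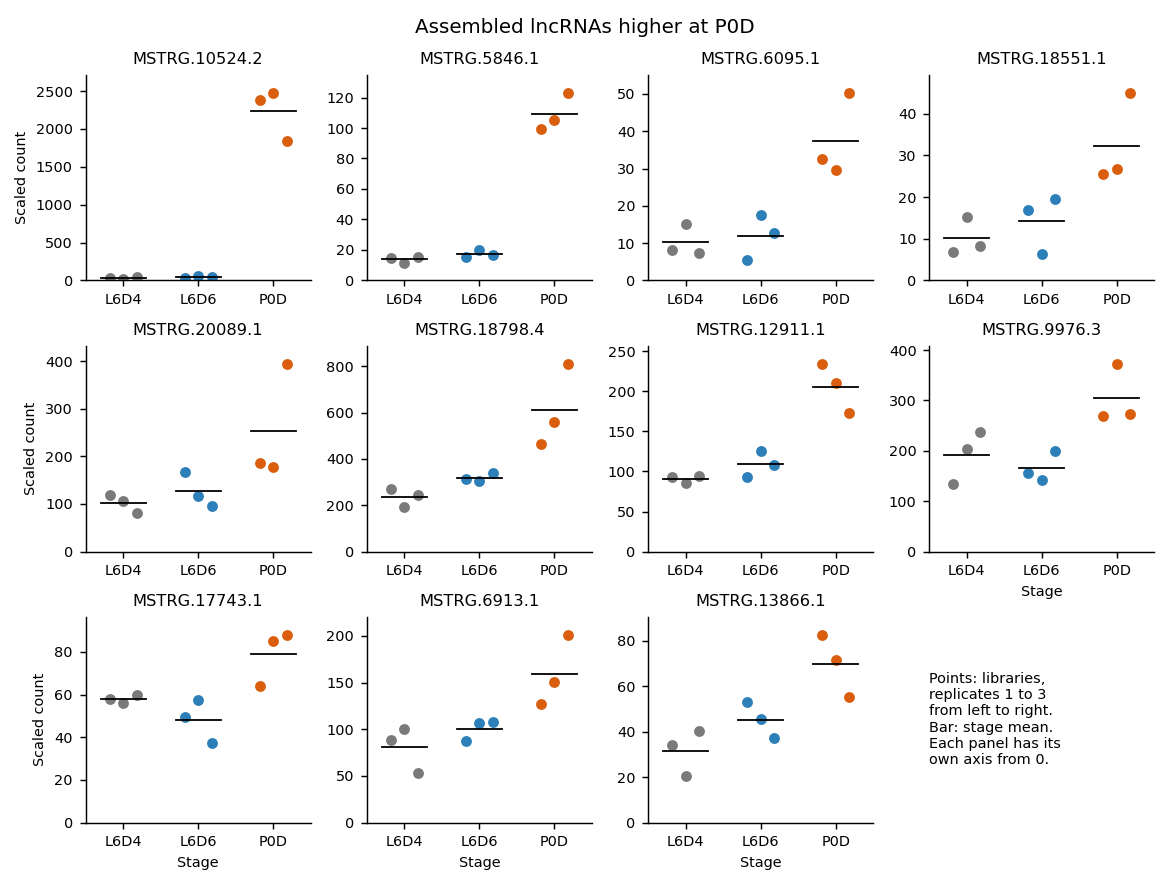
Scaled counts (vertical axis, linear from 0, separate for each panel) of the 11 members higher at P0D, by stage (horizontal axis). Points are the 3 libraries of a stage in replicate order and bars are stage means; MSTRG.10524.2 reaches 1843 to 2472 at P0D, while MSTRG.13866.1 and MSTRG.17743.1 clear the larval values narrowly.

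Among the 11 members lower at P0D, MSTRG.2933.2 stood out. It stood at 65.8, 67.5 and 113.7 scaled counts at L6D4, at 63.1, 133.8 and 123.4 at L6D6, and at 10.9, 4.17 and 21.9 at P0D. The P0D mean of 12.3 ± 8.95 was 8.67-fold lower than the L6D6 mean of 107 ± 38.2 (SD, n = 3 each). The P0D libraries were spread over 5.25-fold, but the highest of them still lay 2.88-fold below the lowest larval library. Its P0D values rest on 11.5, 4.86 and 25.9 deposited counts, which are estimates and not whole numbers.

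MSTRG.16673.1 was the other member more than 2-fold lower. It stood at 72.2, 94.4 and 70.4 scaled counts at L6D4, at 117, 109 and 86.2 at L6D6, and at 44.3, 38.6 and 48.3 at P0D, 2.38-fold below the L6D6 mean and 1.81-fold below the L6D4 mean. Its mean was highest at L6D6, and its P0D values lay close together.

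Then came 4 members with P0D means between 1.81-fold and 1.96-fold below those of L6D6. MSTRG.5519.1 stood at 74.2, 57.1 and 55.3 scaled counts at L6D4, at 73.6, 79.5 and 71.3 at L6D6, and at 28.3, 42.1 and 44.0 at P0D. MSTRG.8168.1 stood at 36.1, 25.7 and 36.9 scaled counts at L6D4, at 44.4, 27.0 and 26.9 at L6D6, and at 18.9, 19.7 and 12.7 at P0D. Its L6D6 and L6D4 means were nearly equal, at 32.8 ± 10.1 and 32.9 ± 6.27 (SD, n = 3 each). MSTRG.21399.1 stood at 23.4, 33.8 and 16.8 scaled counts at L6D4, at 24.8, 26.2 and 14.8 at L6D6, and at 6.60, 14.6 and 13.5 at P0D. MSTRG.8342.1 stood at 22.5, 28.0 and 48.6 scaled counts at L6D4, at 25.7, 31.8 and 25.0 at L6D6, and at 14.2, 12.9 and 18.6 at P0D. The last 3 rest on few reads, with means of 20 to 28.0 deposited counts a library, and in MSTRG.21399.1 the highest P0D value and the lowest larval value were 1.02-fold apart.

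The other 5 had P0D means between 1.51-fold and 1.75-fold below those of L6D6. MSTRG.13026.1 stood at 78.1, 102.6 and 129 scaled counts at L6D4, at 90.5, 85.1 and 88.0 at L6D6, and at 72.6, 27.5 and 50.8 at P0D, so that its P0D libraries were spread over 2.65-fold and P0D-1 lay near the larval values. MSTRG.14959.1 was lower at each stage in turn, at 89.8, 97.9 and 105.6 scaled counts at L6D4, 60.3, 76.3 and 82.5 at L6D6, and 49.998, 48.1 and 31.3 at P0D. Every L6D6 value of MSTRG.14959.1 was below every L6D4 value, with means 1.34-fold apart. MSTRG.18847.1 stood at 108, 154 and 198 scaled counts at L6D4, at 133, 165 and 144 at L6D6, and at 103, 92.7 and 83.8 at P0D. MSTRG.5380.1 held the most counts of the lower members and had the most even P0D values, at 211, 205 and 204 scaled counts at L6D4, 216, 263 and 265 at L6D6, and 165, 162 and 160.1 at P0D. Its P0D mean of 162 ± 2.54 was 1.53-fold below the L6D6 mean of 248 ± 27.6 and 1.27-fold below the L6D4 mean of 207 ± 3.52 (SD, n = 3 each). MSTRG.3028.1, at the limit with 1.51-fold, stood at 73.2, 67.6 and 88.8 scaled counts at L6D4, at 72.8, 81.1 and 101 at L6D6, and at 64.1, 60.1 and 44.9 at P0D. On the lower side 15 loci met every other condition but the limit, the nearest being MSTRG.2410.2 at 1.46-fold and MSTRG.13522.1 at 1.44-fold.

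**Figure D2:**
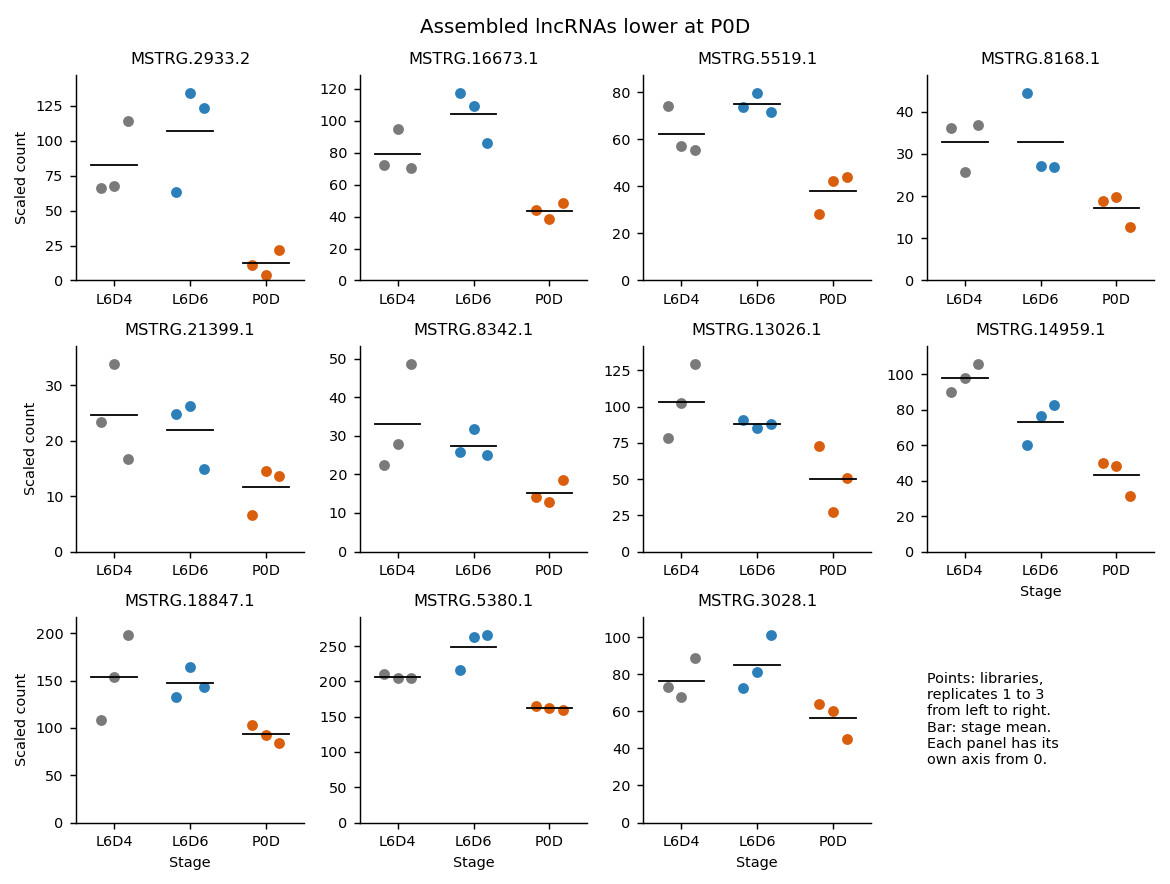
Scaled counts (vertical axis, linear from 0, separate for each panel) of the 11 members lower at P0D, by stage (horizontal axis). Points are the 3 libraries of a stage in replicate order and bars are stage means; MSTRG.2933.2 stands at 4.17 to 21.9 at P0D, and MSTRG.5380.1 shows the tightest P0D values.

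Taking the members as sets, the median P0D mean was 1.92-fold the L6D6 mean on the higher side and 1.81-fold below it on the lower side. Against L6D4 the medians were 2.47-fold higher and 1.92-fold lower. Among the higher members the L6D6 mean was above the L6D4 mean in 9 of the 11, with a median ratio of 1.24, so that in these 9 it lay between the L6D4 and P0D means. The lower members split, with the L6D6 mean above that of L6D4 in 5 of 11. Over the 749 loci within the larval limit the L6D6 mean was above the L6D4 mean in 43.3%.

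**Figure D3:**
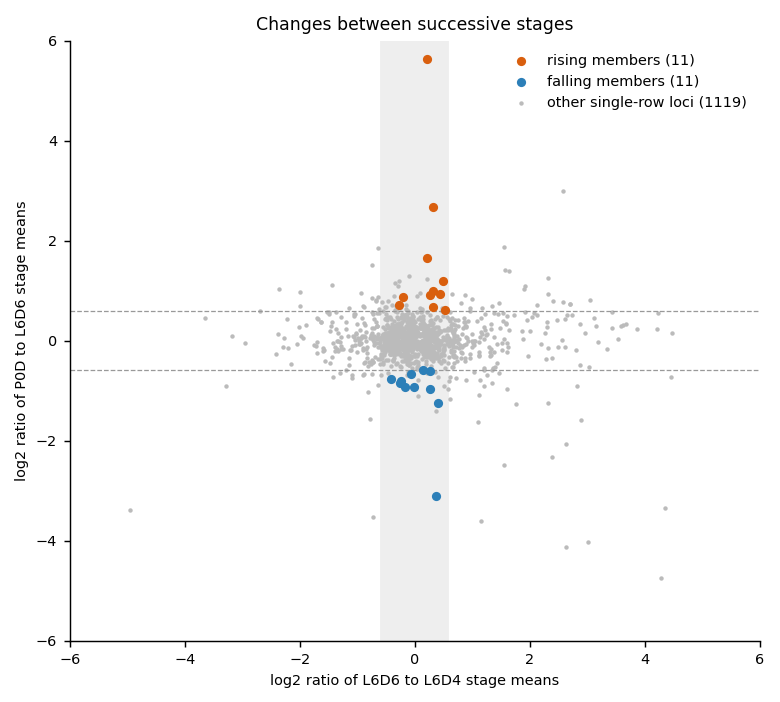
log2 ratio of L6D6 to L6D4 means (horizontal axis) and of P0D to L6D6 means (vertical axis) for 1141 of the 1143 single-row assembled loci that passed the count conditions; the other 2 lie outside the axes or have a stage mean of 0. Orange points are the 11 higher and blue points the 11 lower members, the grey band and dashed lines mark the 1.5-fold limits, and apart from MSTRG.10524.2, MSTRG.5846.1 and MSTRG.2933.2 most members lie near the dashed lines, at the edge of the cloud of other loci.

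A fit over the whole table gives the background for these counts (edgeR quasi-likelihood test on 1913 lncRNAs in all 9 libraries, Benjamini-Hochberg adjusted p under 0.05). For P0D against L6D6 it called 1.78% of lncRNAs tested, 0.47% higher and 1.31% lower. Of the 22 members, which were chosen on this contrast, it called 5: MSTRG.10524.2, MSTRG.5846.1 and MSTRG.12911.1 (adjusted p 0.048, near the threshold) higher, and MSTRG.2933.2 and MSTRG.16673.1 lower. That number was 3 without L6D6-1, L6D6-2 or P0D-2, and 3 when counts were scaled by library totals alone. For P0D against L6D4 it called 26.6% of lncRNAs, and 14 of the 22 members, 9 higher (14.1% of all) and 5 lower (12.5% of all). This contrast too is fixed by the choice, and the number was 8 without L6D4-3, P0D-2 or P0D-3. For L6D6 against L6D4 edgeR called 22.1% of all (13% higher, 9.1% lower) and 0 of the 22. DESeq2 called 489 and limma-voom 403 of the 1913 lncRNAs, and also 0 of the 22. In edgeR, DESeq2 and limma-voom 656, 656 and 638 of the 1913 had an unadjusted p under 0.05, and 0 members in any of these tools. The limit of 1.5-fold on that step makes such calls unlikely, so this is a description.

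Over the 1143 loci, with no condition on the larval step, the P0D mean was at least 1.5-fold above that of L6D6 in 6.91% and at least 1.5-fold below it in 5.95%.

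The narrowest point of the separation is set beside counting error here as a description, since the choice of members used these values. Exact Poisson intervals (95%, on counts rounded to whole numbers) were set for the P0D library nearest to the larval values and the larval library nearest to P0D. They cover counting error only and leave out the spread between libraries. PCR copies were not told apart and the counts are estimates, so the intervals may be too narrow even for that. The intervals were apart in 4 of the 11 higher members (MSTRG.10524.2, MSTRG.5846.1, MSTRG.18798.4 and MSTRG.12911.1) and overlapped in 7. On the lower side they were apart in MSTRG.2933.2 and overlapped in the other 10. Such intervals were set for the members only, so no share over all loci stands beside these numbers. In MSTRG.2933.2 the P0D library held 26 counts (21.9 scaled, interval 14.4 to 32.3) and the larval one 71 counts (63.1 scaled, interval 49.2 to 79.5). In MSTRG.20089.1 the P0D library held 206 counts (177 scaled, interval 153 to 203) and the larval one 188 counts (167 scaled, interval 144 to 192), which overlap. The nearest larval library was of L6D6 in 9 of 11 higher members and of L6D4 in 8 of 11 lower members.

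**Figure D4:**
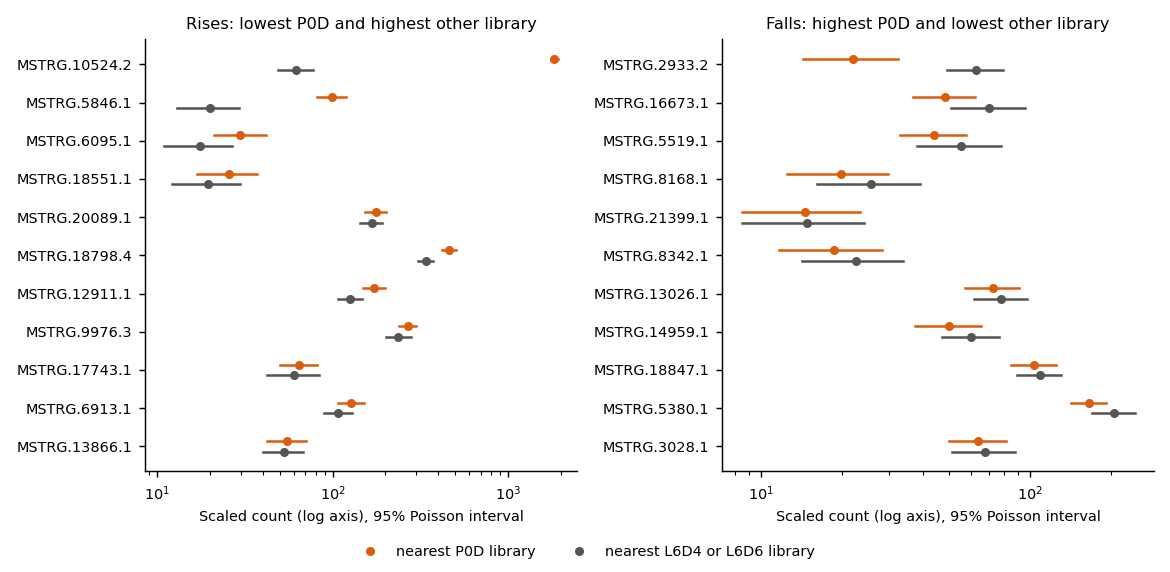
Scaled counts (horizontal axis, log scale) with 95% exact Poisson intervals for the P0D library nearest to the larval values (orange, upper) and the L6D4 or L6D6 library nearest to P0D (grey, lower), for each member, with higher members on the left and lower members on the right. The intervals are apart in 4 higher members and 1 lower member and overlap in the other 17.

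The 3 P0D libraries did not contribute alike. Among the higher members P0D-3 was the highest P0D library in 7 of 11, and P0D-1 the lowest in 6 of 11. Among the lower members P0D-3 was the lowest in 5 of 11, and P0D-1 the highest in 5 of 11. Over the loci flat between the larval stages, P0D-3 was likewise farthest from the larval values in 54.2% of the 393 with a higher P0D mean and 53.9% of the 356 with a lower one, shares near those of the members. P0D-1 was nearest in 45% and 52.8%. The part of the make-up of P0D-3 in these values was not tested. Without P0D-3 the choice gave 18 higher and 18 lower loci, 7 and 9 of them among the 22. Without P0D-1 it gave 33 and 25, with 9 and 11 of the 22.

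The 43 loci that passed the fold limits but whose values overlapped show the same unevenness. The P0D mean was higher in 30 of them, and in 17 of the 30 only P0D-1 failed to exceed all larval libraries. Another 7 of the 30 had only P0D-3 above the larval libraries. Among the 13 with a lower P0D mean, P0D-1 alone failed in 5 and P0D-2 alone in 3.

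How the counts were scaled also decided membership. With TMM factors all 22 remained and 2 lower loci joined. With library totals after removal of the 10 most abundant lncRNAs, 8 higher and 7 lower members remained. With plain library totals, 3 of each remained: MSTRG.10524.2, MSTRG.12911.1 and MSTRG.6095.1 higher, and MSTRG.8168.1, MSTRG.13026.1 and MSTRG.14959.1 lower. Of the 16 lost with plain totals, 4 still had all P0D values beyond the larval ones and failed only the limit on the larval step: MSTRG.5846.1, MSTRG.18798.4, MSTRG.13866.1 and MSTRG.2933.2. With that scaling the L6D6 mean of MSTRG.5846.1 was 1.56-fold its L6D4 mean, and that of MSTRG.2933.2 was 1.67-fold. Over these 3 scalings and the removal of each library in turn, MSTRG.10524.2, MSTRG.12911.1 and MSTRG.8168.1 met the rule every time. This is a description, since the members were chosen on these same libraries. MSTRG.8168.1 was not among the members edgeR called for P0D against L6D6, and its nearest Poisson intervals overlapped. With stage medians its log2 ratio of P0D to L6D6 was -0.52, under the limit of 1.5-fold. With medians MSTRG.6913.1 (0.495) and MSTRG.3028.1 (-0.433) were under it too. Without P0D-3 the ratio of means was under it in MSTRG.20089.1, MSTRG.6913.1 (0.47), MSTRG.14959.1 (-0.573) and MSTRG.3028.1 (-0.45). MSTRG.18551.1 was the least stable, lost with 2 of the 3 scalings and without any of 5 libraries. The log2 ratio of P0D to L6D6 means kept its sign for all 22 members in the 3 scalings. This is no check, because the choice asked for at least 1.5-fold on this step. Plain library totals moved the median log2 ratio of all lncRNAs tested by only 0.042 there. With stage medians or fewer libraries, too, the sign is fixed by the choice of members.

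**Figure D5:**
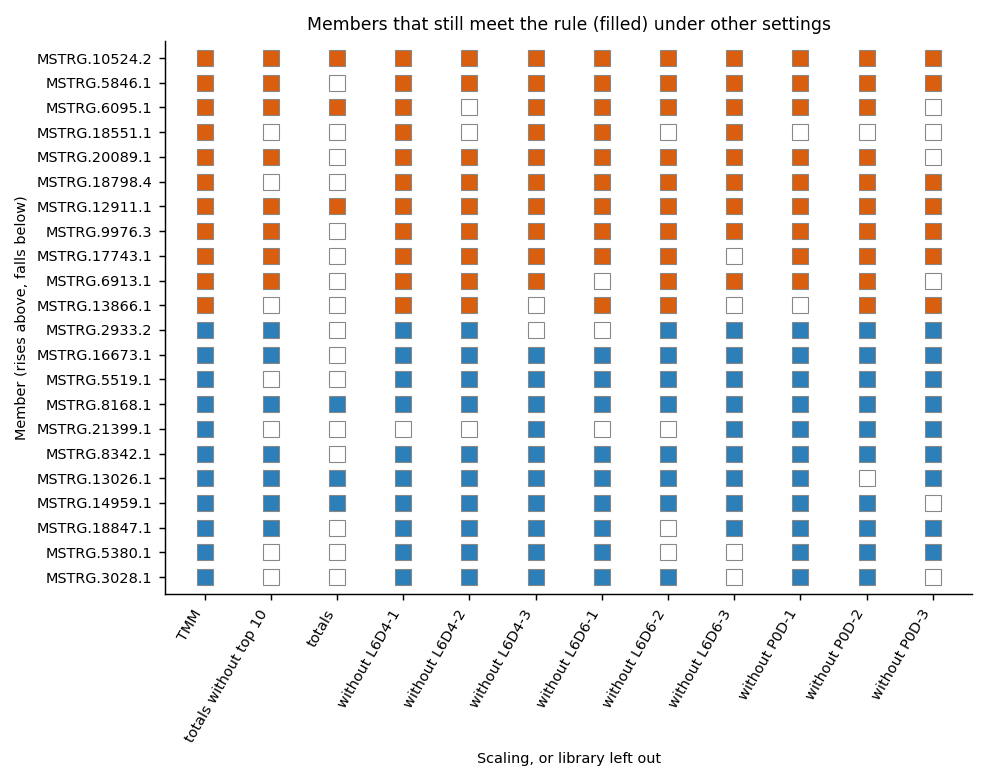
Members (vertical axis, higher above and lower below) that still met the rule (filled squares) or did not (open squares) under 3 other scalings and without each library in turn (horizontal axis). The rows of MSTRG.10524.2, MSTRG.12911.1 and MSTRG.8168.1 are filled throughout, and the column of library totals is open for 16 members.

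As a share of the lncRNA counts the members were small. Summed scaled counts of the 11 higher members were 864, 836 and 891 at L6D4, 984, 1005 and 1017 at L6D6, and 3966, 4260 and 4052 at P0D. MSTRG.10524.2 took the larger part of this sum in P0D-1 and P0D-2 and the smaller part in P0D-3. Without it the sums were 826, 810.1 and 839 at L6D4, 955, 943 and 974 at L6D6, and 1583, 1788 and 2209 at P0D. The 11 lower members summed to 855, 934 and 1068 at L6D4, to 922, 1077 and 1028 at L6D6, and to 578, 523 and 530.0 at P0D. In counts per library total (CPM of the lncRNA table) the higher members held 199 to 244 CPM at L6D4, 310.2 to 342 CPM at L6D6 and 986 to 1747 CPM at P0D. The lower members held 239 to 249 CPM at L6D4, 291 to 346 CPM at L6D6 and 144 to 229 CPM at P0D. On this scale, which has no size factors, both sets were higher at L6D6 than at L6D4 in every library, and P0D-3 came near the L6D4 values of the lower members.

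The transcript number and the whole or decimal form of the values played no part in the choice. In 4 of the 22 members (18.2%) the transcript number was above 1, which shows further transcripts of the locus in the assembly. This share was near the 15.2% of the 1143 loci. They were MSTRG.10524.2, MSTRG.18798.4 and MSTRG.9976.3 on the higher side and MSTRG.2933.2 on the lower side. Values deposited as whole numbers, exactly and before rounding, made up 49.5% in the higher members and 83.8% in the lower ones, against 67.4% over the 1143 loci. All 9 values were whole in 4 higher members (36.4%) and 7 lower members (63.6%), against 61.7% of the 1143 loci. By rows the lower members were thus near the share of all these loci. Of the members, 0 shared their values with another row of the table. Counts and spread did enter the choice, through the count minimum and the separation of values, and are given as a description. The members had a median of 72.7 mean counts a library, against 145 over the 1143 loci. The median coefficient of variation between libraries of a stage was 27.6%, 17.8% and 19.6% at L6D4, L6D6 and P0D in the higher members. In the lower members it was 19.1%, 15.4% and 22.4%. Over the 1143 loci it was 19.8%, 14.4% and 21.5%, and over the 749 loci within the larval limit 16.95%, 13.0% and 20.6%.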

How the data were processed

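Testis RNA was depleted of ribosomal RNA and copied with random primers into dUTP-marked libraries, per the labels' protocols, although the labels' molecule field reads polyA RNA. As deposited by the authors, the table holds an estimated count (expected count) per lncRNA transcript and library, made from the reads without scaling to depth. The submitters' processing notes list StringTie 1.3.4, HISAT2 2.1.0, Bowtie2 2.2.8, fastp 0.18.0 and DESeq2 1.6.3 without their roles. The counter, genome build, annotation and any use of the strand are not stated there, so levels of transcripts that overlap another gene are uncertain. Column names gave the sample of each of the 9 columns. Replicate libraries differed by more than sampling noise in every stage (chi-square of at least 15.4 per degree of freedom).

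Members were found on the deposited values, with pandas 2.3.3. Counts rounded to whole numbers were tested with edgeR 4.0.16 (R 4.3.3; TMM, filterByExpr by stage, 1913 lncRNAs tested, 563 left out, 6 residual degrees of freedom), tested on simulated data, with DESeq2 1.42.0 and limma-voom (limma 3.58.1) as alternatives. All members of a direction were to be named where it held at most 12, which was so for both. Members, rule and lists were chosen with earlier results of these data known. Other scalings, limits, count minimums and the removal of each library were tried.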

Additional observations from a re-analysis of the deposited data

How the results depend on the processing

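The number of members was 11 higher and 11 lower. It was within 1.5 times of this with TMM factors, totals without the 10 most abundant lncRNAs, other count minimums, a tighter limit on the larval step (8 and 8), rounding first and the inclusion of loci with several rows. With plain library totals it was 5 higher and 6 lower, and with a 2-fold limit on the step to P0D 4 and 2. Leaving out 1 library gave 11 to 33 higher and 9 to 25 lower loci. The libraries that moved a number past 1.5 times were L6D6-3 (18 higher, 17 lower), P0D-1 (33 and 25), P0D-2 (17 lower) and P0D-3 (18 and 18). With 1 P0D library fewer, fewer values have to be apart. For P0D against L6D6, edgeR called 34 lncRNAs (9 higher, 25 lower), 26 to 45 without 1 library, and DESeq2 called 63 (29 higher, 34 lower); the cause was not tested. For L6D6 against L6D4, edgeR called 422 (248 higher, 174 lower), and 272 to 509 without 1 library; the number was 279 without L6D6-1 and 272 without L6D6-2. For P0D against L6D4 it called 509 (270 higher, 239 lower). Under library totals the median log2 ratio of all lncRNAs moved by up to 0.391, and the last 2 comparisons split into 329 higher and 78 lower, and 373 higher and 98 lower. Libraries of the same number did not deviate together (correlations from -0.154 to 0.089), so the numbers were not read as pairs; with a replicate block the calls were 29, 376 and 442 in the 3 comparisons as listed, with 3, 0 and 12 members among them; for P0D against L6D6 DESeq2 called 7 members and edgeR without the block 5. Of 220 recomputed log2 ratios of P0D to L6D6 means of single members, 219 moved by less than 1 SD between libraries, and that of MSTRG.8168.1 moved to -0.52 with stage medians, against -0.94. Most of these settings leave out 1 of the 3 libraries of a stage or change the scaling, and could hardly move a ratio past that SD. The count is therefore no measure of stability. Depth limits the scarcest members most, with 20 to 28.0 mean counts in 5 of the 22.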

Other observations

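Transcripts of loci with several rows in the table were outside the choice, and 7 of them met all its other conditions, 4 higher and 3 lower at P0D. MSTRG.3629.1 was 1.92-fold higher at P0D, at 84.8 ± 12.02 scaled counts at P0D and 44.3 ± 4.78 at L6D6, and MSTRG.21055.1 was 1.90-fold higher, at 39.6 ± 6.25 at P0D and 20.8 ± 1.71 at L6D6 (SD, n = 3 each). MSTRG.14916.3 was 2.00-fold lower, at 40.1 ± 2.94 at P0D and 80.3 ± 5.66 at L6D6 (SD, n = 3 each). These were named after their values were seen, and how reads were divided among the transcripts of such a locus is not stated in the labels. The other rows of these loci are not described here, so a change of the whole locus and a shift between its transcripts were not told apart.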
